A study of Mus musculus with 12 samples.

Results

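Rictor-/- and Rictor+/+ fibroblasts were compared after 24 hours of interferon-alpha (IFN-alpha), on 3 arrays of each line. These are 6 of the 12 arrays of the series. They were chosen by their labels, and every probe above background entered the comparison: 17259 features of 45281 probes, of which 8273 carry a gene name. The cells were mouse embryonic fibroblasts (MEFs), which make connective tissue, turned into immortalized lines. All of them were kept in DMEM with serum and gentamycin. The compared groups are Rictor+/+ and Rictor-/- cells given mouse IFN-alpha at 2500 U/ml. The other 6 arrays hold untreated cells of the same lines, 3 arrays each, and served to show which differences were also there without IFN-alpha.

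Rictor is a scaffold without which mTOR complex 2 does not assemble; this kinase assembly phosphorylates Akt, SGK and protein kinase C. Type I interferons bind a receptor made of Ifnar1 and Ifnar2. Its kinases Jak1 and Tyk2 phosphorylate Stat2, which acts with Irf9 at interferon-stimulated response elements near the start of antiviral genes. Fibroblasts also carry a stable pattern of Hox and other patterning factors that marks where in the body they came from, and they secrete most of the collagen of connective tissue. The study asked what Rictor complexes do in interferon signalling and in the growth arrest that interferon causes.

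As far as the labels tell, each genotype is a single immortalized line, so genotype and line cannot be told apart. Separate cultures are not stated for the 3 arrays of a group, and p-values therefore measure the spread between arrays only. A protocol field also names small interfering RNA against Rictor for all samples, which goes against the knockout genotype; the genotype field was followed. The Rictor probe lay near background, with normalized log2 intensities of 5.88, 6.85 and 6.29 in treated Rictor+/+ and 6.20, 6.92 and 5.08 in treated Rictor-/- cells. These ranges overlapped, and the difference was -0.27 ± 0.49 (limma adjusted p = 0.769). With IFN-alpha it exceeded background on 2 arrays of Rictor+/+ and on 1 of Rictor-/- cells. Its place relative to the deletion is not given in the sources used here, so it does not check the genotype. Of 11 measured fibroblast markers, 11 were above background on each Rictor+/+ array and 10 on each Rictor-/- array. The marker at background in Rictor-/- cells was Fap, a surface protease of activated fibroblasts. Of the 11, 7 were lower and 1 was higher in treated Rictor-/- cells. Of 51 listed markers of leukocytes, endothelium, epithelium, neural cells, muscle and cartilage, 12 were named and bright enough to be tested, and 5 of these were called. Cd14, Sox9, Col2a1 and Cldn7 were higher and Map2 was lower. The Cldn7 call was lost without array 2, 6, 8 or 12 and without background correction. It was also lost in the deposited log2 values, with no filter on dim probes, when the spread could follow intensity and on the 6 treated arrays alone. The summed level of the 3 leukocyte markers, on a log2 scale, was 8.22 to 8.46 on treated Rictor+/+ and 10.12 to 10.33 on treated Rictor-/- arrays, carried by Cd14. That of the 2 cartilage markers was 11.63 to 12.29 and 13.20 to 13.94. The part of these levels in the results was not tested, and the leukocyte marker Ptprc had no named probe here.

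A background level of 220.6 to 240.5 intensity units was found on arrays 2, 4 and 6, and one of 114.9 to 127.9 on arrays 8, 10 and 12. The brighter background thus held 2 Rictor+/+ arrays and 1 Rictor-/- array with IFN-alpha, and the dimmer one the reverse. Total signal was 39160400 to 62338100 on 5 of these arrays and 21292300 on array 12, a Rictor-/- array. On that array 31.5% of probes were above background. On the arrays with bright background alone, 31 of the 50 counts of called list members with IFN-alpha were smaller by over 1.5 times, and on those with dim background alone 39 of 50; each set holds 3 treated arrays.

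With IFN-alpha, 946 named genes were higher in Rictor-/- cells (11.4% of 8273) and 1254 were lower (15.2%), by limma at an adjusted p under 0.05. Together 26.6% of the named genes were called. Counts of list members below stand against the 11.4% and 15.2%. Over all features the call rate was 16.3%. Of the called genes, 676 higher and 970 lower ones differed at least 2-fold, and 35 higher and 84 lower ones at least 16-fold. Many differences were close to presence against absence. The dimmer line was below background on all 3 arrays for 142 of the higher and 316 of the lower genes. For these called genes, a fold is given only as a lower bound against the background limit of each array. Among all 8273 named genes, called or not, 278 were below background on all treated Rictor+/+ arrays and 475 on all treated Rictor-/- arrays. The latter include array 12, where the fewest probes exceeded background. Where 766 called genes had further probes, 1042 of 1071 probes had the same sign. Of genes described here, at least 1 further and dimmer probe of Cdkn2a, Mfap3l, Slc7a3, Tbx3 and Tfap2a did not pass the test.

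Most of the called genes were also called without interferon. The same test on untreated cells, which compares other arrays but takes its spread from the same fit, called 877 named genes higher (10.6%) and 962 lower (11.6%). Of the genes higher with IFN-alpha, 638 were also higher without it, which is 67.4% of the treated and 72.7% of the untreated calls. Of those lower with IFN-alpha, 739 were also lower without it, 58.9% of the treated and 76.8% of the untreated calls. The test of whether the line difference itself differed with IFN-alpha called 3 named genes on the higher side (0.0363%) and 55 on the lower side (0.665%). Of the 55, 53 were among the genes lower in treated Rictor-/- cells. Across the 8273 named genes the log2 differences with and without IFN-alpha had a Pearson correlation of 0.87, given as a description of genes measured on the same kind of array.

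**Figure D1:**
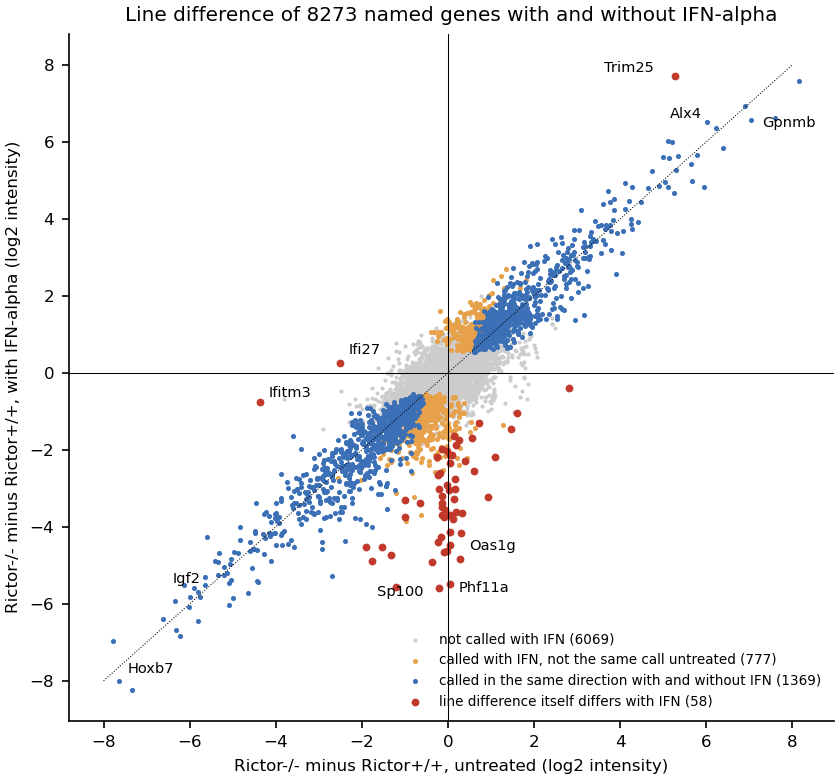
Log2 difference between Rictor-/- and Rictor+/+ cells for each named gene, without IFN-alpha (horizontal axis) and with it (vertical axis); the dotted line marks equal differences. Most called genes lie near that line, while a column of genes near 0 on the horizontal axis reaches below -5 with IFN-alpha, among them Phf11a and Sp100.

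Of 30 measured antiviral effectors, 17 were lower and 1 was higher in treated Rictor-/- cells, with a median difference of -1.45 against -0.04 over all named genes. The lower count was 9 on the dim-background arrays alone. Without IFN-alpha 11 were lower and 2 higher, with a median of -0.47. Arrays measure RNA of whole cultures, so a lower level per cell and fewer responding cells cannot be told apart. The difference itself differed with IFN-alpha for 8 members on the lower side and 3 on the higher side.

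Oas1g, a synthetase whose 2-5A product activates the RNA-cutting enzyme RNase L, had treated log2 intensities of 14.82, 14.24 and 14.31 in Rictor+/+ cells. The treated Rictor-/- arrays gave 10.39, 10.14 and 10.35. The groups were far apart, with a difference of -4.16 ± 0.22 or 17.9-fold (limma adjusted p = 5.68e-08). Untreated cells gave 6.55, 6.22 and 6.66 in Rictor+/+ and 6.996, 6.54 and 6.80 in Rictor-/- arrays, and these ranges overlapped. Oas1g thus was present in both treated lines, at a lower level in Rictor-/- cells.

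Oas2, a larger member of the same family, showed the same shape, with 12.95, 12.28 and 11.83 in treated Rictor+/+ and 8.74, 8.46 and 7.42 in treated Rictor-/- cells, a difference of -4.14 ± 0.37 (limma adjusted p = 4.61e-06). Oasl1, which in mice restrains translation of Irf7, stood at 10.51, 10.08 and 9.75 in treated Rictor+/+ cells and below background on all treated Rictor-/- arrays, at least 13.4-fold lower. Oas1a was at least 9.06-fold lower. Oas1a and Oas1g have near-identical copies, and how far their probes tell the copies apart was not tested. Mx1, a GTPase that blocks influenza virus replication, gave 12.20, 11.50 and 11.67 in Rictor+/+ and 8.11, 7.83 and 6.04 in Rictor-/- cells, a fitted difference of -4.46 ± 0.42 that depends in part on background, since array 12 lay below it.

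Other members of the list stayed bright in both lines. The ubiquitin-like protein Isg15 averaged 15.64 ± 0.11 (SD, n = 3) in Rictor+/+ and 13.66 ± 0.26 (SD, n = 3) in Rictor-/- cells with IFN-alpha. Its difference of -1.98 ± 0.26 was called (limma adjusted p = 0.000136), and it was -3.41 without IFN-alpha. Ifit2, an RNA-binding inhibitor of translation, differed by -3.05 ± 0.30 with IFN-alpha and by 0.02 without it. For Ifit3, a partner of Ifit2, the treated difference was -0.66 ± 0.28 and its limma adjusted p was 0.131.

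Members on the higher side of the test behaved differently. Ifitm3, a membrane protein that stops viruses in endosomes, gave 14.09, 14.21 and 14.44 in untreated Rictor+/+ and 10.88, 9.50 and 9.27 in untreated Rictor-/- cells. With IFN-alpha the values were 15.84, 15.82 and 15.38 and 15.23, 15.19 and 14.38, so that the line difference went from -4.36 ± 0.38 to -0.75 ± 0.38, the second not called (limma adjusted p = 0.216). Ifi27, a small interferon-induced membrane protein, went from a difference of -2.51 ± 0.26 to one of 0.27 ± 0.26. Trim25, the ubiquitin ligase that helps activate the RNA sensor RIG-I, was below background on all 6 Rictor+/+ arrays. It stood at 10.08, 10.02 and 9.84 in untreated and 12.35, 12.19 and 12.67 in treated Rictor-/- cells, at least 78.8-fold above Rictor+/+ with IFN-alpha. A second, dimmer Trim25 probe was also higher in Rictor-/- cells. The difference of the line differences was 3.62 ± 0.53 for Ifitm3, 2.78 ± 0.37 for Ifi27 and 2.44 ± 0.27 for Trim25 (limma adjusted p = 0.00616, 0.00288 and 0.000638). For Trim25 this is the rise in Rictor-/- cells set against Rictor+/+ levels below background, where a response could not be seen.

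**Figure D2:**
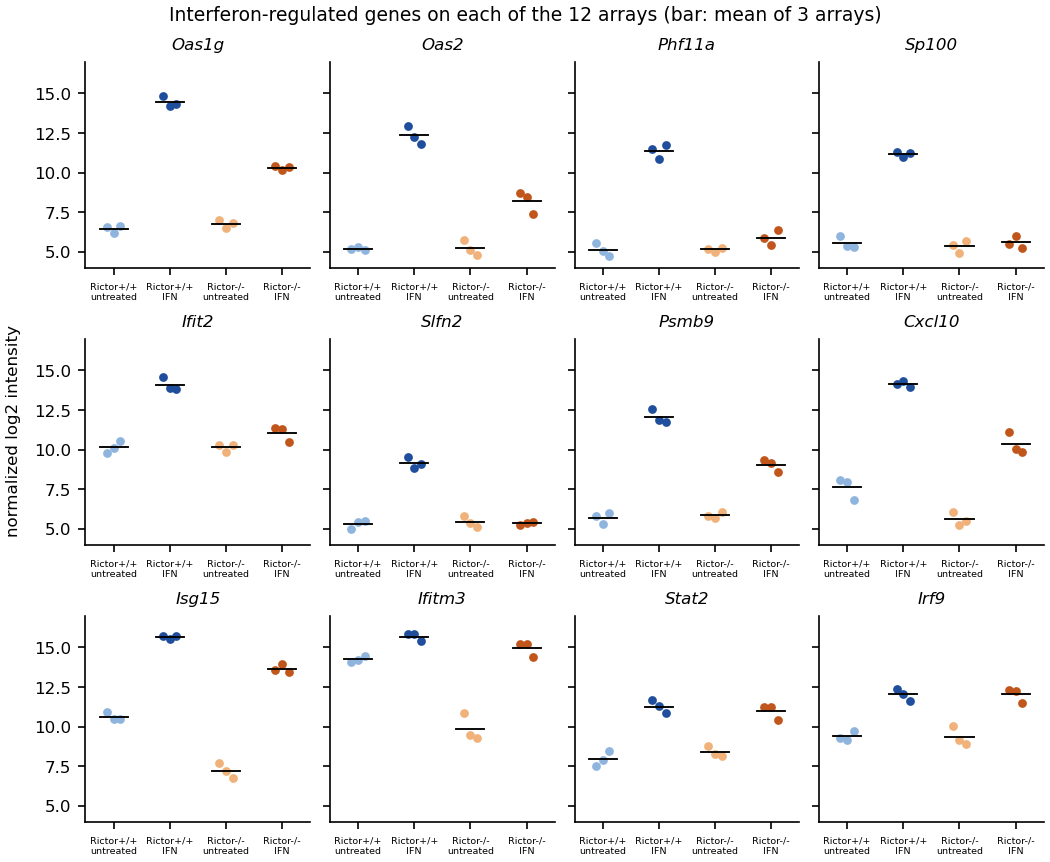
Normalized log2 intensity of 12 interferon-regulated genes on each of the 12 arrays by genotype and treatment; dots are arrays and bars are means of 3. Phf11a, Sp100 and Slfn2 stay near background in treated Rictor-/- cells, Oas1g and Psmb9 reach a lower level than in Rictor+/+ cells, and Stat2 and Irf9 overlap between the lines.

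Of 6 measured PML body and Phf11 genes, 5 were lower with IFN-alpha, at a median of -3.12. The count was 2 when probes had to be above background on at least 6 arrays, a filter that removed Phf11a, Sp100 and Sp140. Without IFN-alpha limma called 0 of 6, and 0 had an unadjusted p under 0.05. Phf11a, a PHD-finger protein, gave 11.52, 10.87 and 11.76 in treated Rictor+/+ cells and was below background on all 3 treated Rictor-/- arrays, at least 32.2-fold lower. The difference of the line differences was -5.53 ± 0.43 (limma adjusted p = 4.64e-05). This is a fitted value, since untreated Phf11a levels were below background in both lines too. Sp100, a structural component of PML nuclear bodies, stood at 11.32, 10.99 and 11.22 in Rictor+/+ and 5.51, 6.02 and 5.27 in Rictor-/- cells, a fitted difference of -5.58 ± 0.28. Untreated Rictor-/- arrays gave 5.42, 4.95 and 5.68, so treated and untreated cells of that line overlapped. Phf11d gave 13.89, 13.51 and 13.29 against 10.10, 9.97 and 9.52, lower by 13-fold. Pml, which builds the bodies, differed by -0.36 ± 0.28 and was not called (limma adjusted p = 0.454). Phf11a and Phf11d are close paralogs, and cross-hybridization was not tested.

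Promoters of the 55 genes on the lower side of that test were searched for the letters GAAA, any 2 bases and GAAA again, on either strand, the core of the response element. Windows ran from 250 bases before to 50 after the transcription start, from RefSeq on GRCm38.p6, and overlapping matches were counted separately. The motif was found in 13 of the 39 genes with a promoter window (33.3%). Among these were Ifi205, Ifi207, Ifi213, Ifi214 and Mndal, neighbours on chromosome 1, and Oas1a, Oas1g and Oas3, neighbours on chromosome 5. The 13 are thus not all independent. The 55 genes were chosen by a difference that depends on IFN-alpha, and the part of this choice in the share was not tested. It was found in 3.99% of all 27025 genes of the table and in 4.06% of the named genes tested. Of genes lower both with and without IFN-alpha 4.97% held it, and of those higher in both 4.2%. For genes called with IFN-alpha but not untreated, it was 10.4% of the lower and 2.04% of the higher ones. A match is a description of letters and not of a binding site. The windows of 4 genes that held the motif are shown with it in capitals; those of Sp100, Mpeg1, Oasl1 and Trim25 held no match. Phf11a (chr14:59297473-59297772, minus strand) is shown for the largest difference of differences, Oas1g (chr5:120887564-120887863, minus strand) and Oas1a (chr5:120907476-120907775, minus strand) as neighbouring paralogs with overlapping matches, and Ifitm3 (chr7:141010695-141010994, minus strand) as 1 of the 3 genes on the higher side of the test.
Phf11a: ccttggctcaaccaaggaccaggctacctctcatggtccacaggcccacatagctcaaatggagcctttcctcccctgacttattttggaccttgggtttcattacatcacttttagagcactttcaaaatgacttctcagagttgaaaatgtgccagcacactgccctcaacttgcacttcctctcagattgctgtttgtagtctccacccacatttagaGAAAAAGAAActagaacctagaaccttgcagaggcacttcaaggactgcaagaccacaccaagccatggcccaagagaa
Oas1g: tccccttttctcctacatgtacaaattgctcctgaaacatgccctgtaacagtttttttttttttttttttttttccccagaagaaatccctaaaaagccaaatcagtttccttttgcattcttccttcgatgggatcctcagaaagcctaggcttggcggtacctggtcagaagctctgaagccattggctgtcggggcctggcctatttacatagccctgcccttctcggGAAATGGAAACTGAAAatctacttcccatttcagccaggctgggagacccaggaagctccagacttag
Oas1a: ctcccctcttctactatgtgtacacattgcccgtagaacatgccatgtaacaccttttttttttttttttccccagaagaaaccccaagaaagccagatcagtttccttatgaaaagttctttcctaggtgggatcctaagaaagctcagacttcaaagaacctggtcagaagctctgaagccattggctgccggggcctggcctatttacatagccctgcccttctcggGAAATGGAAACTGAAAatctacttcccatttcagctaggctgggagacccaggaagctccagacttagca
Ifitm3: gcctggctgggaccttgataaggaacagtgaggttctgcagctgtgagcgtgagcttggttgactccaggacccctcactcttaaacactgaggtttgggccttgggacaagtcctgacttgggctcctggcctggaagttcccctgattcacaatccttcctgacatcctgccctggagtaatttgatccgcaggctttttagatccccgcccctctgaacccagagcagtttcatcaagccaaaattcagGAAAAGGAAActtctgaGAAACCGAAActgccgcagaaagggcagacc
In Phf11a the match began 29 bases before the start site, at position -29. Oas1g and Oas1a held 2 overlapping matches each, at -18 and -12 and at -20 and -14. Ifitm3 held 2 matches downstream of the start site, at 2 and 19.

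Of 15 measured receptor and signalling genes, 2 were lower with IFN-alpha, near the 15.2% of all named genes. On that side 4 had an unadjusted limma p under 0.05, against 1879 of all 8273 named genes. Stat2 gave 11.65, 11.30 and 10.84 in treated Rictor+/+ and 11.27, 11.22 and 10.41 in treated Rictor-/- cells, a difference of -0.30 ± 0.32 (limma adjusted p = 0.604). Irf9, its DNA-binding partner, gave 12.37, 12.09 and 11.63 and 12.32, 12.26 and 11.52, a difference of 0.00 ± 0.33. Both ranges overlapped. For the receptor chain Ifnar2 the difference was -0.22 ± 0.27. No probe was named for Ifnar1 here. Irf1, a transcription factor that extends the response, stood at 14.75, 14.50 and 14.87 against 12.74, 12.78 and 12.72, a difference of -1.95 ± 0.24, and was already lower, at -1.34 without IFN-alpha. Socs1, the feedback inhibitor of Jak kinases, was lower, at a fitted -2.19 ± 0.43.

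Antigen presentation was lower in part. Of 18 measured genes of the MHC class I pathway 9 were lower in treated Rictor-/- cells, at a median of -1.17. The lower count was 5 and 4 on the bright-background and dim-background arrays alone. Untreated, 4 were higher and 3 lower in Rictor-/- cells, at a median of -0.16. Psmb9, an immunoproteasome subunit, gave 12.57, 11.86 and 11.72 in Rictor+/+ and 9.34, 9.15 and 8.58 in Rictor-/- cells, 8.13-fold lower, and its untreated difference of 0.16 was not called. Psmb8, another such subunit, differed by -3.15 ± 0.29. The peptide transporter subunit Tap2 differed by -2.79 ± 0.67, with the call lost without array 10. H2-M3, a class I chain that presents formylated peptides, differed by -2.73 ± 0.31, about as much as untreated (-2.98). The treated ranges of the other measured class I chains, H2-K1, H2-D1, H2-Q7 and H2-T23, overlapped between the lines. Untreated, each of these chains was higher on every Rictor-/- array than on any Rictor+/+ array. H2-D1 gave 9.08, 9.60 and 9.49 in untreated Rictor+/+ and 11.28, 10.91 and 10.82 in untreated Rictor-/- cells. Of the 18 genes, the difference itself was called on the lower side for 2, and 10 had an unadjusted limma p under 0.05 there, against 55 and 380 of all 8273 named genes. B2m, the shared light chain, differed by -0.11 ± 0.18 and was not called (limma adjusted p = 0.732).

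Interferon-induced GTPases, which attack the vacuoles of intracellular parasites, were lower for 4 of 10 measured members. At an unadjusted limma p under 0.05, 9 of 10 were lower, against 1879 of all 8273 named genes. Tgtp1 gave 11.22, 10.77 and 10.34 in treated Rictor+/+ and 7.57, 8.12 and 5.58 in treated Rictor-/- cells, with array 12 below background. Irgm2 differed by -2.48 ± 0.36 and Igtp by -2.21 ± 0.51. The count of 4 was 8 without background correction and 1 on the dim-background arrays alone.

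Nucleic acid sensing genes were lower for 8 of 16 measured and higher for 1, against 15.2% and 11.4% of all named genes. The lower count was 5 on either set of background alone. Untreated, 5 were lower and 2 higher, and 6 kept the same call in both. Ifi205, of the DNA-binding Ifi200 family, gave 13.05, 12.73 and 12.64 in Rictor+/+ and 9.54, 9.09 and 8.55 in Rictor-/- cells. Sting1, the adaptor of cytosolic DNA sensing, gave 9.25, 9.19 and 9.12 in Rictor+/+ cells and was below background on all treated Rictor-/- arrays, at least 7.02-fold lower. It was already lower untreated, at a fitted -2.75. Zbp1, a sensor of Z-form nucleic acid, differed by -2.65 ± 0.32 with and -0.23 without IFN-alpha. Mavs, the mitochondrial adaptor of RNA sensing, was higher by 0.99 ± 0.22.

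Chemokines and cytokines were lower for 9 of 15 measured and higher for 1 (2 without array 10). Untreated, 4 were lower and 2 higher, and 5 kept the same call in both. Cxcl10, which attracts activated T cells, gave 14.17, 14.34 and 13.95 in treated Rictor+/+ and 11.13, 10.06 and 9.85 in treated Rictor-/- cells, 14-fold lower. Ccl5, which attracts T cells and monocytes, stood at 11.56, 11.18 and 10.38 in Rictor+/+ cells and was below background in all treated Rictor-/- arrays, at least 25.5-fold lower. Its untreated difference was also called. Cxcl12, which retains blood stem cells in marrow, gave 15.26, 15.33 and 15.33 against 12.76, 12.35 and 12.27, and its difference of -2.84 ± 0.20 with IFN-alpha was matched by -2.83 without it. Il15, a growth factor of natural killer cells, was higher by 1.51 ± 0.25.

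Of 11 measured Schlafen, caspase and death receptor genes, 9 were lower, and 3 on either set of background alone. Untreated, 3 were lower, and 3 kept the same call in both. Slfn2, a Schlafen gene known in mice for keeping T cells quiescent, gave 9.53, 8.85 and 9.07 in treated Rictor+/+ cells and was below background in all treated Rictor-/- arrays, at least 6.85-fold lower. Casp4, an inflammatory caspase that senses bacterial lipopolysaccharide, gave 11.25, 10.71 and 10.55 against 6.53, 6.27 and 6.01, a fitted difference of -4.57 ± 0.28. A dimmer Casp4 probe did not pass the test. Fas, a death receptor, was lower, at -2.39 ± 0.52, with array 12 below background.

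Of 18 measured mTOR pathway genes, 2 were higher and 2 lower, at a median of -0.15, near the 11.4% and 15.2% of all named genes. The higher count was 4 without array 10, and the lower count 1 without array 2, 6, 8 or 12. Sgk1, a kinase that mTOR complex 2 activates, gave 11.84, 11.94 and 11.82 in treated Rictor+/+ and 14.79, 14.33 and 14.49 in treated Rictor-/- cells, 6.36-fold higher (limma adjusted p = 6.32e-07), and was higher by 2.38 untreated. Mtor itself was higher by 1.21 ± 0.19. Prr5, a subunit of mTOR complex 2, was lower, at -1.40 ± 0.37, a call lost without array 2, 6, 8 or 12. Pik3r1, the regulatory subunit of phosphoinositide 3-kinase, was lower, at -0.97 ± 0.22. Of 15 targets of the FoxO factors, 1 was higher and 2 were lower, against 11.4% and 15.2% of all named genes. The higher count was 0 without array 4, 8 or 10, and the lower count 1 without array 2. Among these, Txnip, an inhibitor of glucose uptake, was lower, at -1.89 ± 0.45.

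Called cell division genes differed in number with and without IFN-alpha. However, no member of either list passed the test of the difference itself (limma, 0 called). On its higher side, 4 of 22 replication and 7 of 17 mitosis genes had an unadjusted p under 0.05. Among all named genes this was 185 of 8273. DNA replication genes were lower for 2 of 22 treated and 10 of 22 untreated, against 15.2% and 11.6% of all named genes. Cdc45, a subunit of the replicative helicase, gave 10.10, 10.37 and 10.70 in treated Rictor+/+ and 9.28, 8.97 and 9.80 in treated Rictor-/- cells. Mitosis genes were higher for 4 of 17 treated, against 11.4% of all named genes. Untreated, limma called 0 of them, with 0 at an unadjusted p under 0.05. Cenpa, the centromere histone, gave 12.60, 13.25 and 13.49 and 13.99, 14.08 and 14.35, a difference of 1.03 ± 0.26 (limma adjusted p = 0.0172). The mitosis count of 4 was 0 without array 2 and 1 without array 12. The replication count of 2 was 0 without array 4 or 10 and 1 without array 8. Among 13 inhibitors of cyclin-dependent kinases and p53 targets, 3 were higher and 2 lower, against 11.4% and 15.2% of all named genes. The lower count was 1 without array 2, 6 or 8. Cdkn1c, an imprinted inhibitor, was at least 4.81-fold higher, and Cdkn2a, a tumour suppressor often altered in immortalized fibroblasts, was lower, at -1.26 ± 0.23.

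**Figure D3:**
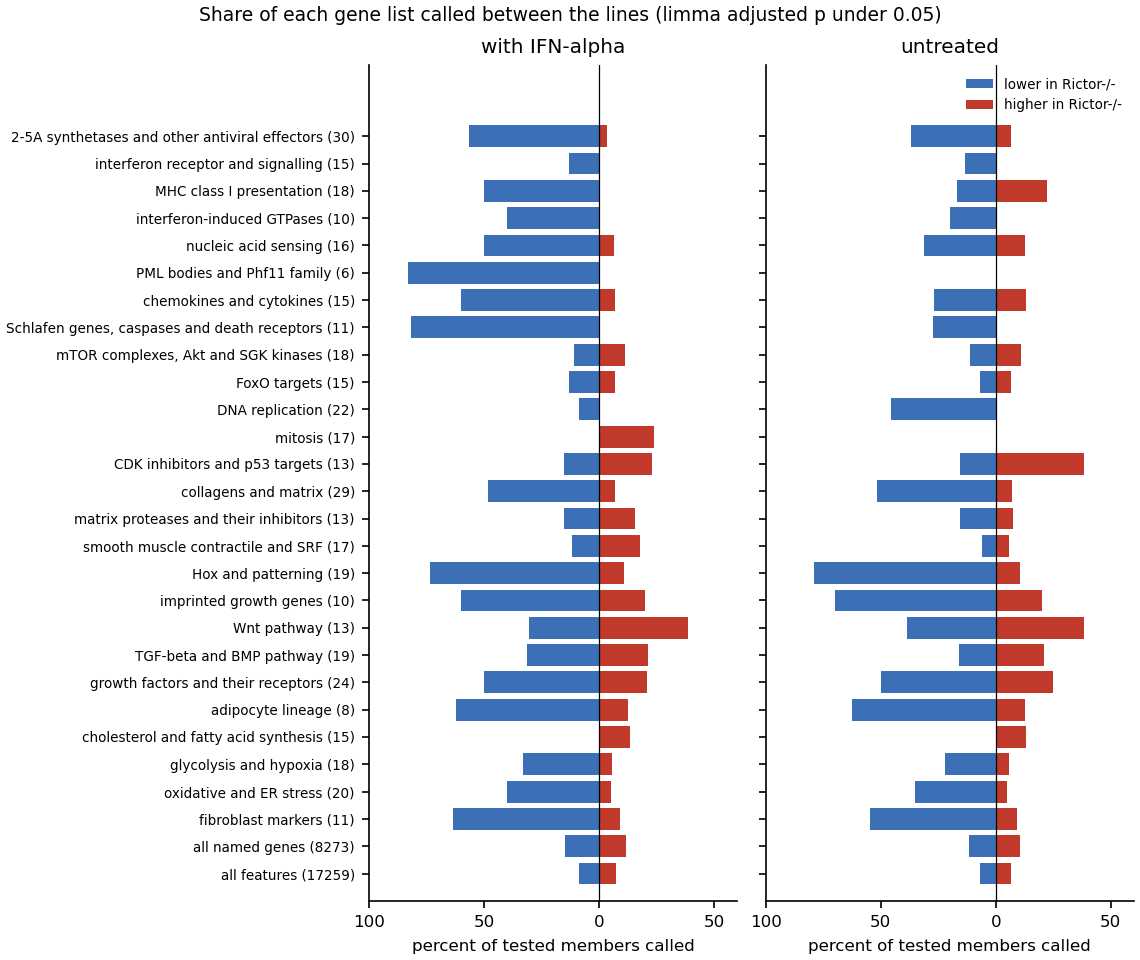
Percent of the measured members of each gene list called lower (left of 0) or higher (right of 0) in Rictor-/- cells, with IFN-alpha and untreated; the number measured is in parentheses, and the bottom rows give all named genes and all features. The PML and Phf11 list has 5 of 6 members lower with IFN-alpha and none called untreated, where Phf11a, Sp100 and Sp140 lay below background. The Hox list has 14 and 15 of 19 lower in the left and right panels.

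Of 19 measured Hox and patterning genes 14 were lower and 2 higher with IFN-alpha, at a median of -3.20. Untreated, 15 were lower and 2 higher. Hoxb7 gave 13.06, 13.05 and 13.05 in treated Rictor+/+ cells and 5.31, 4.84 and 4.97 in Rictor-/- cells, the latter below background, so that it was at least 103-fold lower (limma adjusted p = 1.83e-10). Hoxb4 was at least 15.5-fold and Hoxa5 at least 10-fold lower. Zic1, a zinc-finger factor of neural tube and somites, gave 12.36, 12.44 and 12.11 in Rictor+/+ cells and was at least 60.9-fold lower.

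The 2 higher members of the list were Tbx3 and Tbx18. Alx4, Tfap2a, Tfap2b and Foxc2, which are not in it and were named for their size or brightness, were also higher. Alx4, a homeobox factor of the limb and face, was below background in treated Rictor+/+ cells and gave 11.03, 11.09 and 11.67 in Rictor-/- cells, at least 35.7-fold higher. Tfap2b and Tfap2a, factors of neural crest and skin, were at least 69.2-fold and 35.5-fold higher. Tbx3, a T-box factor of limb and heart, was at least 20.5-fold higher, and Tbx18 was higher by a fitted 3.13 ± 0.36. Foxc2, a forkhead factor of mesenchyme, gave 7.06, 7.26 and 8.12 against 11.59, 11.92 and 12.29, 21.9-fold higher.

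Of 29 measured structural matrix genes, 14 were lower and 2 higher with IFN-alpha; untreated, 15 were lower and 2 higher, and 16 kept the same call in both. The lower count was 9 without array 2, and 8 and 5 on the bright-background and dim-background arrays alone. Dcn, a collagen-binding proteoglycan, gave 13.87, 13.18 and 13.57 in treated Rictor+/+ and 9.80, 10.67 and 10.94 in treated Rictor-/- cells, a difference of -3.07 ± 0.31. Col1a2, a chain of type I collagen, gave 13.00, 12.64 and 13.43 and 9.95, 10.47 and 11.18, 5.61-fold lower. Col4a2, a chain of basement membrane collagen, was the reverse, with 10.62, 10.35 and 9.75 and 13.09, 12.87 and 12.05, 5.39-fold higher. Its partner Col4a1 was higher by 1.48 ± 0.27. Among 13 matrix proteases and inhibitors 2 were higher and 2 lower, against 11.4% and 15.2% of all named genes. Timp1, a protease inhibitor, was higher by 1.25 ± 0.18 and the related Timp3 lower, at -1.19 ± 0.24.

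Growth factors and their receptors were lower for 12 of 24 measured and higher for 5, the latter count being 3 without array 6 or 8. Igf2, an imprinted fetal growth factor, gave 13.92, 13.21 and 13.47 in treated Rictor+/+ and 7.999, 8.34 and 8.50 in treated Rictor-/- cells, 38.1-fold lower (limma adjusted p = 1.82e-07). Its untreated difference of -5.34 was about the same. Egfr, the receptor of epidermal growth factor, gave 11.73, 11.22 and 11.96 against 7.24, 6.56 and 7.88, a difference of -4.41 ± 0.37; 1 of its 4 other probes did not pass the test. Gas6, a ligand of the TAM receptors, Igfbp3, which binds insulin-like growth factors, and Hgf, the hepatocyte growth factor, were at least 14.1-fold, 10-fold and 6.61-fold lower. Fgf7, a ligand of an FGF receptor, and Pdgfa, a ligand of PDGF receptors, were higher by 2.44 ± 0.35 and 1.56 ± 0.19.

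Imprinted growth genes were lower for 6 of 10 measured and higher for 2. Dlk1, which holds back adipocyte differentiation, differed by -2.96 ± 0.33, and Grb10, an adaptor that restrains insulin signalling, by -2.28 ± 0.22. In the adipocyte list 5 of 8 were lower and 1 higher, and the lower count was 3 without array 6 or array 8. Lpl, which releases fatty acids from lipoproteins, gave 11.86, 12.15 and 12.28 against 7.19, 7.18 and 8.04, 24.7-fold lower. Pparg, the master factor of fat cells, was at least 11-fold lower.

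Wnt pathway genes were split, with 5 of 13 higher and 4 lower. Dkk3, a secreted protein of the Dickkopf family, was below background in treated Rictor+/+ cells and gave 12.36, 12.71 and 12.48 in Rictor-/- cells, at least 85.1-fold higher. The secreted inhibitors Sfrp1 and Sfrp2 went opposite ways, Sfrp1 higher by 2.01 ± 0.23 and Sfrp2 at least 5.08-fold lower. The higher count was 3 without array 4, 6, 8 or 10, and the lower count 2 without array 2. TGF-beta and BMP genes were also split, with 4 of 19 higher and 6 lower. Without 1 array the higher count was 1 to 2, for each of the 6 arrays. The lower count was 2 without array 2 and 3 without array 6 or 12. Tgfbi, a secreted protein that TGF-beta induces, was lower, at -1.73 ± 0.31. Smooth muscle and SRF targets were higher for 3 of 17 and lower for 2, against 11.4% and 15.2% of all named genes. The lower count was 1 without array 2, 4, 8, 10 or 12 and without background correction. It was also 1 with an offset of 50, median scaling, cyclic loess, the deposited values, no filter or the background set as a block. Actg2, the smooth muscle actin, was lower, at a fitted -5.26 ± 0.34, and Tagln, an actin-binding protein, was higher by 1.54 ± 0.23.

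**Figure D4:**
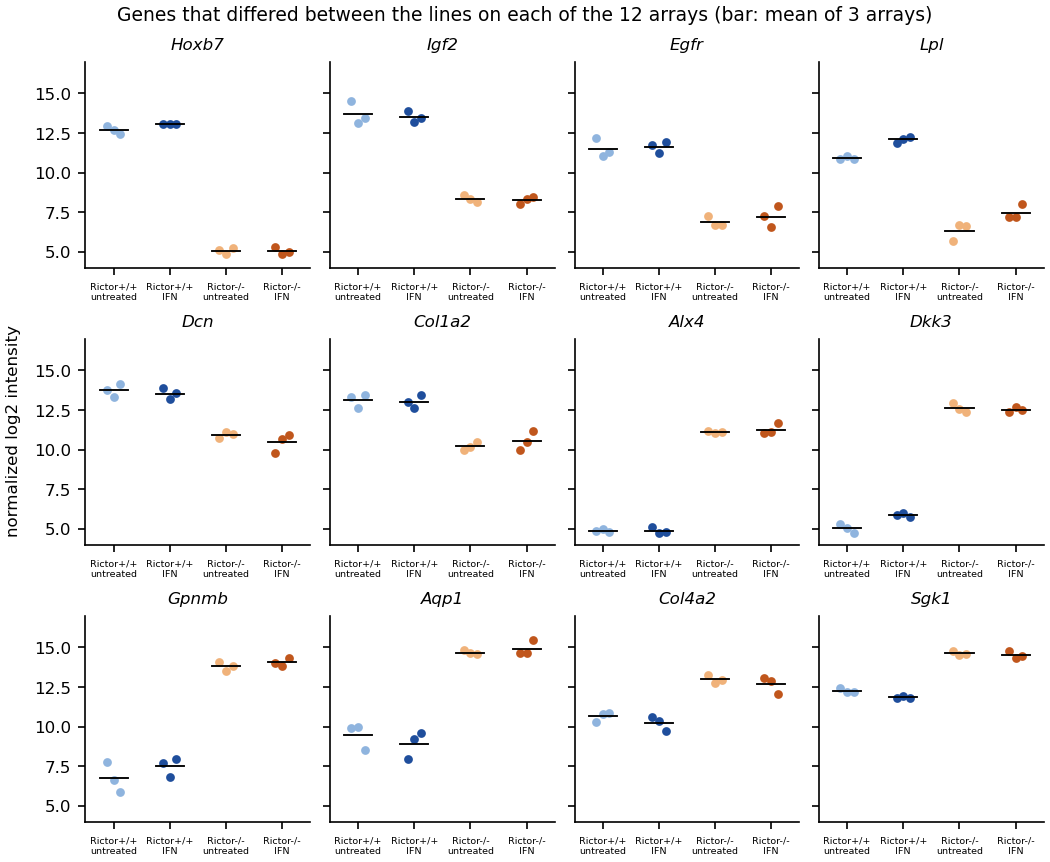
Normalized log2 intensity of 12 genes that differed between the lines on each of the 12 arrays, by genotype and treatment; dots are arrays and bars are means of 3. In each panel the Rictor-/- arrays stand apart from the Rictor+/+ arrays both with and without IFN-alpha.

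Among genes above background in both lines, the largest higher differences were those of Gpnmb and Aqp1. Gpnmb, a transmembrane glycoprotein of pigment cells and macrophages, gave 7.71, 6.84 and 7.95 in treated Rictor+/+ and 14.01, 13.81 and 14.36 in treated Rictor-/- cells, 94.3-fold higher. Aqp1, a water channel, gave 7.99, 9.21 and 9.58 and 14.64, 14.66 and 15.44, 63.5-fold higher. Other genes of this kind were Srpx2, Tenm4, Fxyd5, Mfap3l, Sirpa, Adh7, Jun, Ank and Dnajc15, at differences of 3.64 to 4.87, and each was called higher untreated as well. Jun, a subunit of the AP-1 factor, gave 8.15, 7.69 and 7.41 against 11.64, 11.30 and 11.56.

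On the lower side, Ptn, a heparin-binding growth factor, gave 15.71, 15.47 and 15.63 in treated Rictor+/+ and 11.07, 11.95 and 11.34 in treated Rictor-/- cells. Slc7a3, a transporter of basic amino acids, Plekha2, a phosphoinositide-binding adaptor, and Artn, a ligand of the RET receptor complex, differed by -4.58 ± 0.31, -4.48 ± 0.40 and -3.85 ± 0.41; each was called lower untreated as well. Mpeg1, a pore-forming protein of macrophages, differed by -4.66 ± 0.24 with IFN-alpha and -0.10 without it. Its treated values were 12.38, 11.77 and 12.67 in Rictor+/+ and 7.604, 7.85 and 7.39 in Rictor-/- cells. Gm4951 and Gm12250, interferon-induced GTPase genes of mice, differed by -4.62 ± 0.34 and -4.38 ± 0.32 with IFN-alpha and by -0.03 and -0.24 without it.

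Genes detected in only 1 treated line included Stmn2, a microtubule regulator of neurons, at least 114-fold higher in Rictor-/- cells, and S100a7a and Lrrc15, at least 43.9-fold and 28.9-fold higher. In the other direction, Itga11, a collagen receptor chain, was at least 41.7-fold lower, and Slc1a3, a glutamate transporter, at least 29.2-fold lower. Aldh3b1, Arap2 and Cthrc1 were at least 36.4-fold, 32.9-fold and 25.9-fold lower.

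Glycolysis and hypoxia genes were lower for 6 of 18 and higher for 1. The lower count was 3 without array 2, and the higher count 0 without array 2, 4, 8 or 10. P4ha2, a collagen hydroxylase, gave 11.94, 11.93 and 12.03 against 9.95, 9.88 and 10.00, 4.07-fold lower, and Vegfa, the vascular growth factor, was lower, at -1.41 ± 0.19. Sterol and fatty acid synthesis genes were higher for 2 of 15, near the 11.4% of all named genes, and the count was 0 or 1 without array 2, 6, 8 or 10. Oxidative and endoplasmic reticulum stress genes were lower for 8 of 20 and higher for 1. Ddit3, a stress-induced transcription factor, was lower, at -1.45 ± 0.30. That lower count of 8 was 3 to 5 without array 2, 4, 6, 8 or 12, and 0 on either set of background alone.

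Sex-linked genes differed between the lines. Xist, the RNA that coats the inactive X chromosome of female cells, was below background in treated Rictor+/+ cells and gave 9.41, 9.92 and 8.96 in Rictor-/- cells, at least 10-fold higher. Eif2s3y, a Y-linked translation factor, gave 8.87, 8.69 and 9.33 in Rictor+/+ cells and was below background in Rictor-/- cells, at least 6.04-fold lower. Both differences were also called untreated.

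Line differences were unevenly spread over the genome, a grouping chosen after the values were seen and given without a test. A chromosome was found for 8267 of the 8273 named genes in RefSeq (GRCm38.p6). On chromosome 16, 120 of 291 genes were lower (41.2%) and 11 were higher, at a median of -0.71 with IFN-alpha and -0.68 untreated. With each gene centred on its mean over the 12 arrays, the chromosome 16 median was 0.32 to 0.39 on the 6 Rictor+/+ arrays. It was -0.43 to -0.31 on the 6 Rictor-/- arrays, with no overlap. This chromosome was picked for its low median on these same arrays, so the separation is a description and no further support. The lines also separated on chromosome 11 (0.21 to 0.23 against -0.28 to -0.18) and chromosome 18 (-0.32 to -0.25 against 0.24 to 0.32). Mx1, Mx2 and Ifnar2, of which Ifnar2 was not called, lie on chromosome 16. Whether position bears on their levels was not tested. On chromosome 18, 65 of 227 genes were higher (28.6%), at a median of 0.52 with and without IFN-alpha. Chromosome 11 had a median of -0.43, with 139 of 710 genes lower.

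**Figure D5:**
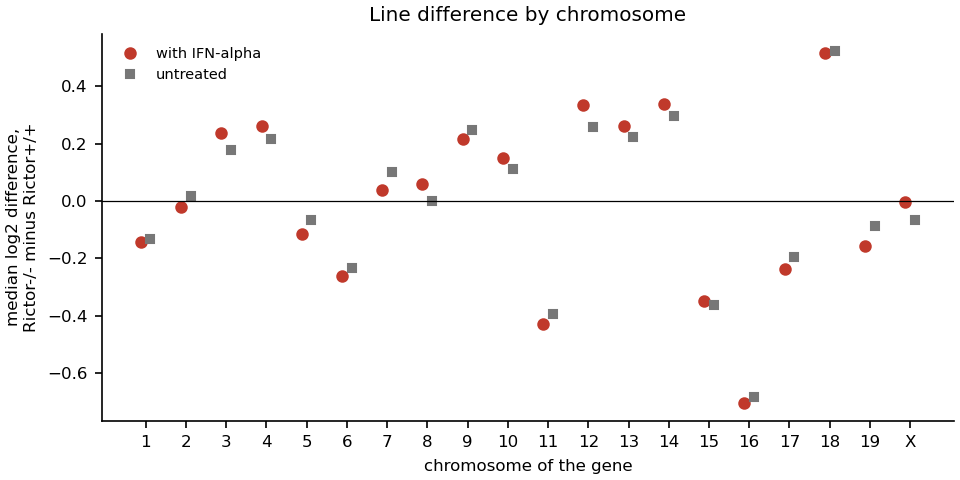
Median log2 difference between Rictor-/- and Rictor+/+ cells over the named genes of each chromosome, with IFN-alpha (circles) and untreated (squares). Chromosome 16 is lowest at -0.71 and chromosome 18 highest at 0.52, and each circle lies near its square.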

How the data were processed

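RNA of 12 samples, 3 per line and treatment, was hybridized to Illumina mouse BeadChip arrays. The authors deposited a table of bead intensity per probe on a linear scale, made with BeadStudio per the submitters' processing notes, and a table of log2 values of 17003 probes whose normalization is not given in the sources used here. The intensity table holds no detection p-values or control probes. Background was therefore taken from the mode of each array's signals, and values were corrected by normexp with an offset of 16, quantile normalized and put on a log2 scale with limma 3.58.1 in R 4.3.3. Quantile normalization hides a shift shared by all genes. Probes above background (tail probability under 0.01) on at least 3 of 12 arrays were kept, and the brightest probe stood for a gene. Names come from the platform annotation of the probes in the deposited log2 table, so other genes are unnamed.

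All 12 arrays entered 1 limma fit of the 4 group means, with two-sided tests, Benjamini-Hochberg adjustment over 17259 features and a call at an adjusted p under 0.05. Differences are Rictor-/- minus Rictor+/+ on the log2 scale ± SE, with n = 3 arrays per group; the number of arrays limits the precision, at a median SE of 0.29. The fit was tested on simulated data. Named genes were the 12 largest differences in each direction among genes above background in both lines, the 8 brightest in each direction among genes below background in 1 line, up to 4 called members of each list in each direction and members named in an earlier report of these data, up to 8 in each direction of the test of the difference of differences, and the genes that define the design. Isg15, Ifit2, Ifit3, Pml, B2m, H2-K1, H2-D1, H2-Q7 and H2-T23 were added after their values were seen. Members and lists were chosen with earlier results of these data known. Of 640 list entries 437 were measured; lists are described by counts and medians, with no set test. There were 19 alternative settings set at the start. A block on runs of 4 array numbers and leaving out each untreated array were added after seeing the data.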

Additional observations from a re-analysis of the deposited data

Results flagged for a closer look

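For 11 genes the difference between the lines was tested to differ with and without IFN-alpha, and these were the largest such differences in each direction. All values are the line difference with IFN-alpha minus that without it, on the log2 scale, from limma. They are fitted values and not bounds. Untreated levels of the lower-side genes named here, other than Oas1g, lay below background. So did treated Rictor-/- levels of Phf11a and Oasl1. All Rictor+/+ levels of Trim25 lay below background, so a Trim25 response in that line could not be seen. On the lower side stood Phf11a at -5.53 (adjusted p = 4.64e-05), Sp100 at -5.37, Csprs at -5.10 (adjusted p = 0.000495), Gm4951 at -4.59, Mpeg1 at -4.57, Oasl1 at -4.55 and Mx1 at -4.52 (adjusted p = 0.00288). Oas1g followed at -4.46 (adjusted p = 3.83e-05). Csprs, a gene related to Sp100, has similar copies, and which copy its probe reads was not tested. On the higher side stood Ifitm3 at 3.62, Ifi27 at 2.78 and Trim25 at 2.44 (adjusted p = 0.00616, 0.00288 and 0.000638). Each of the 11 lost its call on the arrays of 1 background set alone, where few arrays remain.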

How the results depend on the processing

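Under the 19 settings set at the start none of the 2200 called named genes turned its sign, although 178 had no value when a probe had to be above background on at least 6 arrays. The counts of genes higher and lower with IFN-alpha, 946 and 1254, were 307 and 499 on the bright-background arrays alone and 189 and 359 on the dim-background arrays alone. Array weights gave 1528 higher genes. Untreated, 877 and 962 became 307 and 396, and 158 and 283, on these sets, and 1879 and 2051 with array weights. For the difference of differences, the 3 higher genes were 5 without background correction, 5 in the deposited log2 values and 16 with array weights; the 55 lower genes were 35 with median scaling, 18 with the filter of 6 arrays, from fewer genes tested, and 127 with array weights. Within each background set limma called 0 of either kind. At an unadjusted p under 0.05 there were 356 higher and 426 lower on the bright and 89 and 194 on the dim set. The sets hold fewer arrays; otherwise the cause was not tested. Leaving out each of the 12 arrays in turn gave 667 to 1011 higher and 905 to 1317 lower genes with IFN-alpha, 624 to 1026 and 708 to 1130 untreated, and 3 to 4 and 43 to 57 for the difference of differences; the untreated arrays were added to this after seeing the data. Median scaling moved the median of all features from 0.04 to 0.21 and the higher share of the calls from 43.0% to 52.6%. Of 169 genes taken by the naming rule, 136 lost no call in any setting outside the single background sets where they had a value, and 33 lost it in at least 1. The labels share no replicate number between groups, but each run of 4 array numbers holds 1 array of each group. With these runs as a block, an alternative chosen after seeing the data, 1004 and 1298 genes were called with IFN-alpha, 930 and 1008 untreated, and 3 and 56 for the difference of differences. Deviations from the group means correlated at -0.32 to 0.54 within runs (median 0.096, 18 pairs) and at -0.46 to 0.49 between runs (median -0.022, 36 pairs). Of 12 arrays, 8 correlated best with an array of their own run, although most pairs lie between runs. Whether the runs are batches was not tested. The main fit left them out because the labels do not name them as pairs. Dim probes, unnamed probes and 3 arrays per group limit what can be seen.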
